A study of Homo sapiens with 6 samples.

Results

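The BCL2 family decides at the mitochondrial outer membrane whether a stressed cell lives or dies. The 10 genes described here cover its functional classes. BCL2, BCL2L1 (which encodes BCL-XL), MCL1 and BCL2A1 (A1/BFL-1) are survival genes, BAX and BAK1 encode the effectors that permeabilize the membrane, and BBC3 (PUMA), PMAIP1 (NOXA), BID and BCL2L11 (BIM) encode BH3-only proteins that sense damage. All probe sets of the Affymetrix PrimeView array that are annotated to 1 of these symbols and to no other gene were taken, which gave 46 of the 49293 probe sets tested and 10 of the 18155 genes. BCL2L11 had 14 of them, BCL2 and MCL1 had 6 each, BAK1 had 5, BID had 4, BCL2L1 had 3, and BCL2A1, BAX, BBC3 and PMAIP1 had 2 each. The names of 13 end in _s_at or _x_at, the maker's suffixes for probe sets that may also bind other transcripts.

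RNA came from the human line MDA-MB-231, grown from a metastatic breast cancer without hormone receptors and infected stably with a CTCF overexpression lentivirus (CTCF-OE, 3 arrays) or with a negative control lentivirus (NC, 3 arrays). Both groups were therefore the same line after lentiviral infection, and the vector of the CTCF-OE group held the full-length CTCF coding sequence. The sources used here do not say whether the stable cells were pools or clones, or whether the 3 RNA samples of a group were grown separately. The p-values rest on a spread among arrays that may be technical. The labels name no death stimulus.

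Survival proteins hold the effectors and the BH3-only proteins in check by binding them in a groove. BH3-only proteins fill that groove or activate BAX and BAK directly, after which the effectors assemble into pores and cytochrome c leaves the mitochondria. Several of these genes are under transcriptional control: BCL2A1 and BCL2L1 are classical targets of NF-κB, whereas BBC3, PMAIP1 and BAX answer to DNA damage, and PMAIP1, BBC3 and BCL2L11 also to stress of the endoplasmic reticulum. Much of the family's activity is set after transcription, by phosphorylation, cleavage and rapid turnover, which an array does not read.

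Probe set intensities, deposited on a linear scale after the authors' own scaling between arrays, had array medians between 83.3 and 84.5. CTCF itself, the check of the labels, had 1 probe set, which read 399, 388 and 399 in the arrays labelled CTCF-OE, against 463, 442 and 489 in the NC arrays (log2 fold change -0.23, standard error 0.047, adjusted p = 0.0639 from limma). It was thus not higher under the label of overexpression. Where that probe set lies in the transcript, and whether it can read the transgene, is not given in the sources used here, so each direction given here refers to the arrays labelled CTCF-OE. CTCF protein was not measured by these arrays. Among 21 probe sets for control RNAs added during sample preparation, the difference between the groups ran between -0.08 and 0.14 on the log2 scale (median -0.03), and 8 of them had groups that did not overlap. The 6 control probe sets for ribosomal RNA all had log2 differences below 0, between -0.38 and -0.03, and the widest read 4418, 4326 and 4368 in the arrays labelled CTCF-OE, against 5706, 5679 and 5716 in the NC arrays. At the brightest probe sets, the log2 fold changes of most of the 10 genes lay within the range of the added RNAs. Those of BCL2A1 (0.27), BBC3 (-0.21), BAX (-0.15) and PMAIP1 (-0.09) lay outside it. So did some of the dimmer probe sets, among them 1 of MCL1 (-0.26). The part of either control's difference in the results was not tested. The line's markers VIM, CD44, CAV1, AXL, MSN and EGFR read between 454 and 14201, whereas ESR1, PGR, FOXA1 and CDH1 read between 7.67 and 61.1. Of these markers EGFR was lower in the arrays labelled CTCF-OE, with 454, 467 and 457, against 559, 620 and 624 in the NC arrays (log2 fold change -0.38, adjusted p = 0.0183 from limma). EPCAM and GATA3, epithelial and luminal markers, were measured in both groups at 327 to 504.

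The estimated differences of the 10 genes between the groups were below 1.3-fold at every probe set. Among their 46 probe sets, 1 was lower at an adjusted p under 0.05 in limma, a probe set of MCL1, and 0 were higher. Over all probe sets these shares were 1.27% lower and 0.803% higher. With a fold change above 1.3 required as well, 0 of the 46 passed, against 0.637% of all probe sets. At an unadjusted p under 0.05 there were 7 (5 lower and 2 higher), beside 17% of all probe sets. The methods' t-test with Benjamini-Hochberg adjustment called 1, a probe set of BAX, beside 1.21% of all probe sets, and 0 with the fold threshold. The 3 arrays of each group did not overlap at 6 probe sets that were lower and 3 that were higher, beside 12.8% and 11.6% of all probe sets. With 1 value per gene, 4 of the 10 genes (BCL2A1, BAX, BBC3 and PMAIP1) had an unadjusted p under 0.05 in limma, beside 17.2% of all genes. After adjustment over all genes 0 of the 10 passed. The groups did not overlap at the brightest probe sets of 4 genes that were lower and 1 that was higher, beside 12.8% and 11.6% of all probe sets. The share of all genes without overlap at their brightest probe sets was not computed, so this count has no matching baseline. At their brightest probe sets, 9 of the 10 genes had log2 fold changes below 0 and only BCL2A1 lay above it, with a median of -0.05. Over all 46 probe sets the signs were nearly even, with 24 below 0 and 22 above it and a median of -0.01, and over all genes 49.9% lay below 0.

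**Figure D1:**
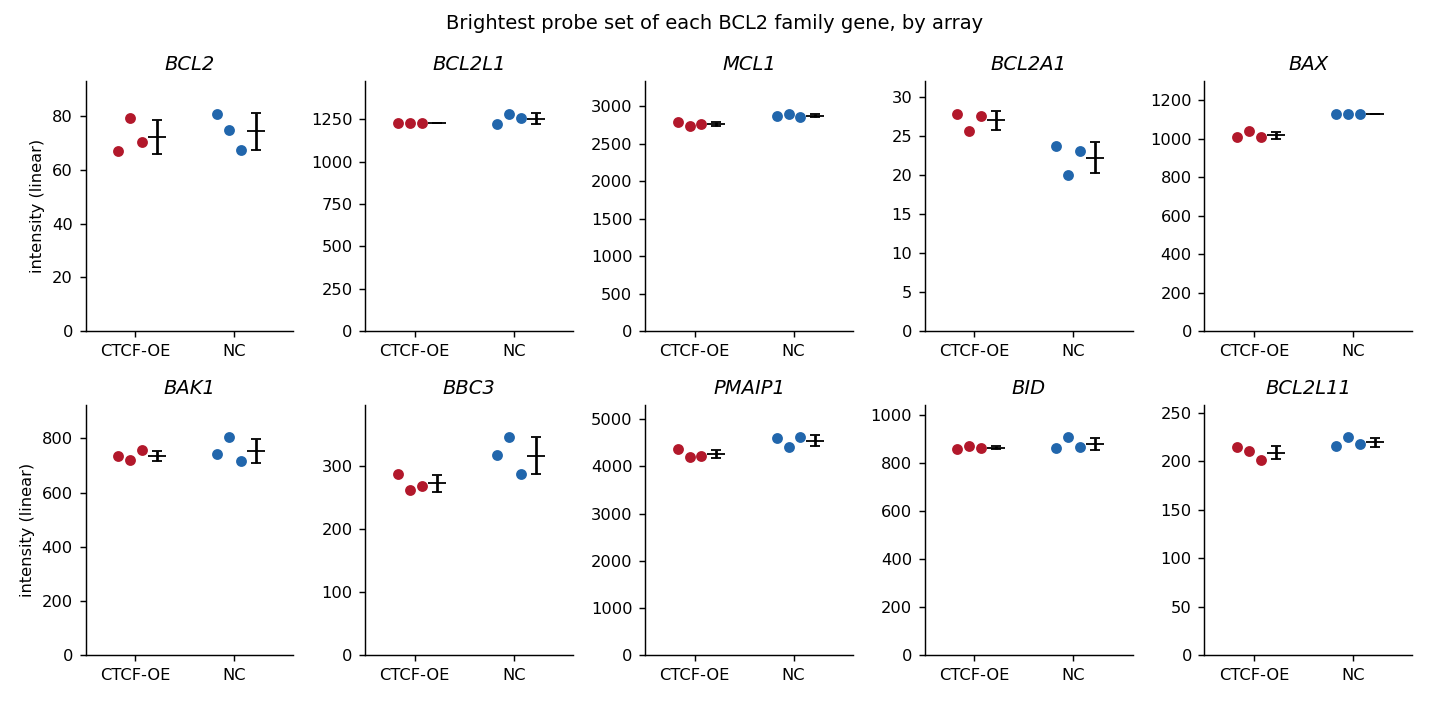
Intensity (linear scale from 0) at the brightest probe set of each of the 10 genes, with 1 point per array, arrays labelled CTCF-OE in red and NC arrays in blue, and the mean ± SD of the 3 arrays beside them. The groups lie close together in every panel, and at BAX the arrays labelled CTCF-OE read 1006 to 1037, against 1127 to 1129 in the NC arrays.

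The precision was enough to bound most of these differences in signal. The 95% interval of the log2 fold change lay wholly within 1.3-fold of no change (0.38 on the log2 scale) at 41 of the 46 probe sets, as it did at 92.7% of all probe sets. The intervals were not adjusted for their number. The 5 exceptions were both probe sets of BBC3, the brightest of BCL2A1, the dimmest of BCL2 and 1 of MCL1. Standard errors at the 46 ran between 0.034 and 0.131. Some of the bounded probe sets, of BCL2, BCL2A1, BAK1 and BCL2L11, read within the range of the background control probe sets (5.05 to 58.0). There the interval bounds a signal that may be partly nonspecific, and not the RNA itself.

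**Figure D2:**
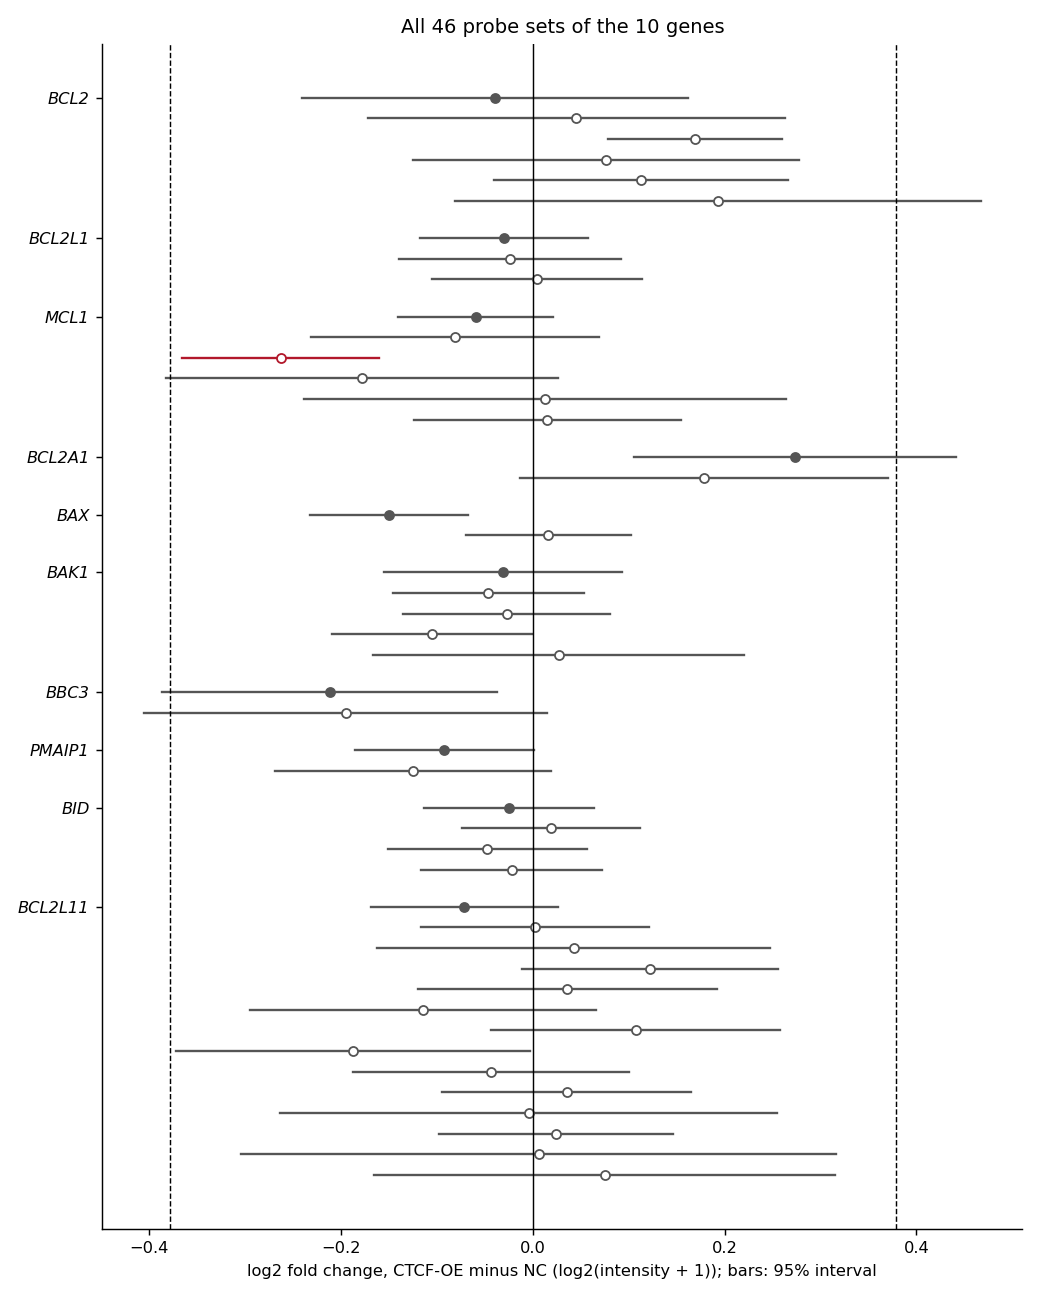
Log2 fold change, CTCF-OE minus NC, of log2(intensity + 1) for all 46 probe sets, brightest first within each gene, with filled points for the brightest and bars for the 95% interval from limma. Dashed lines mark 1.3-fold, which no point reaches, and the MCL1 probe set at -0.26 in red is the only one with an adjusted p under 0.05.

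Among the survival genes, MCL1 was lower at 1 of its 6 probe sets. MCL1 is a labile survival protein that cells must keep making and that sequesters NOXA, BIM and BAK. At the probe set 11715484_a_at, ranked 3 by brightness, the intensity was 842, 850 and 880 in the arrays labelled CTCF-OE, against 995, 1021 and 1072 in the NC arrays. All 3 arrays labelled CTCF-OE lay below all 3 NC arrays, with a gap between the groups of more than the range among either. The log2 fold change was -0.26 (standard error 0.043, 95% interval -0.37 to -0.16, adjusted p = 0.0357 from limma), a difference under the 1.3-fold threshold. In RNA from a whole culture, fewer cells with the transcript and less transcript per cell cannot be told apart. The call rested on all 6 arrays: without any 1 of them the adjusted p was between 0.0817 and 0.146, with the log2 fold change between -0.29 and -0.23, and the methods' t-test gave an adjusted p of 0.0849.

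The other 5 probe sets of MCL1 did not pass and had smaller estimates. The brightest (11715483_s_at) read 2784, 2730 and 2759 in the arrays labelled CTCF-OE, against 2873, 2899 and 2850 in the NC arrays. Its groups did not overlap either, but the log2 fold change was -0.06 (95% interval -0.14 to 0.02, adjusted p = 0.435 from limma). The probe set ranked 2 had -0.08 and that ranked 4 had -0.18, whereas the dimmest pair had 0.01 each. At these 4 the groups overlapped, and NC replicate 3 stood at an end of the NC values in each, highest at the first pair (1979 and 943) and lowest at the dimmest (406 and 150.0). The stretch of transcript that each probe set reads is not given in the sources used here, and the difference between the probe sets was not tested.

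**Figure D3:**
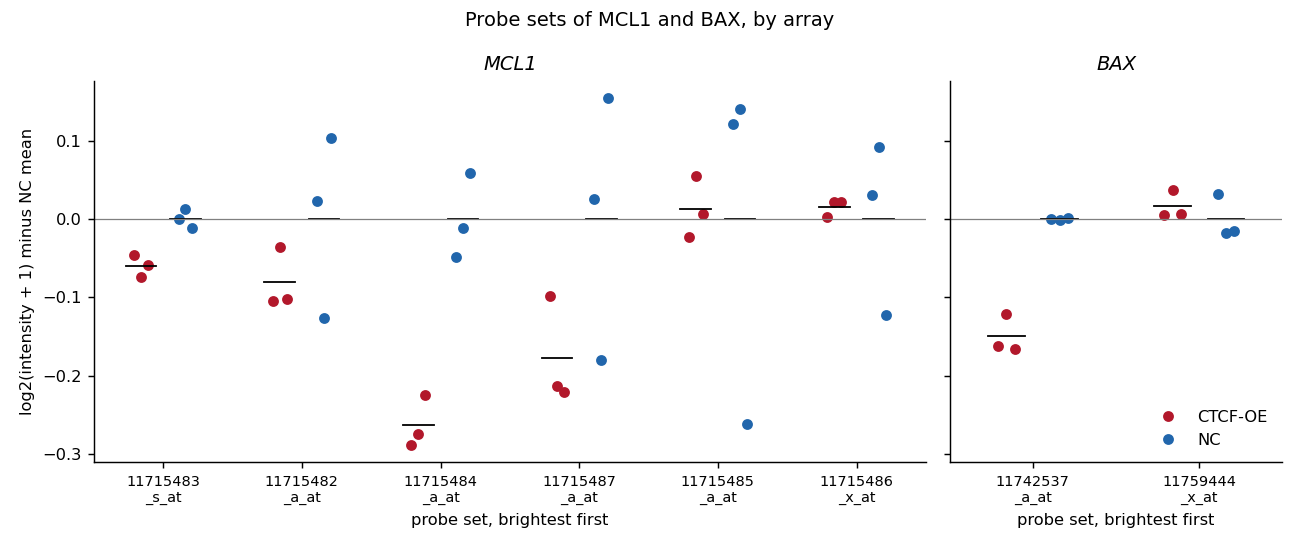
log2(intensity + 1) minus the mean of the NC arrays for the 6 probe sets of MCL1 and the 2 of BAX, brightest first, with 1 point per array, arrays labelled CTCF-OE in red at the left of each pair and NC arrays in blue at the right, and bars at the means. At 11715484_a_at the mean of the red points is at -0.26 and no red point reaches a blue one, whereas the 2 dimmest MCL1 probe sets and the second BAX probe set are centred near 0.

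BCL2L1 did not pass at any of its 3 probe sets. BCL-XL, its product, guards many epithelial cells against BAX and BAK. Its brightest probe set read 1226, 1226 and 1228 in the arrays labelled CTCF-OE, against 1218, 1282 and 1258 in the NC arrays, so that the groups overlapped. The log2 fold change was -0.03 (95% interval -0.12 to 0.06, adjusted p = 0.736 from limma), and its other 2 probe sets had -0.02 and 0.00. All 3 intervals excluded a 1.3-fold change.

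BCL2, the founding member of the family, was read at low intensity, with group means between 23.0 and 74.4 over its 6 probe sets. For comparison, background control probe sets with 3 to 20 G or C bases read 5.05 to 58.0, so several BCL2 probe sets lie within the range of nonspecific signal. The brightest read 67.2, 79.3 and 70.5 in the arrays labelled CTCF-OE, against 80.9, 74.9 and 67.2 in the NC arrays, with overlap (log2 fold change -0.04, 95% interval -0.24 to 0.16). The remaining 5 had values above 0, between 0.05 and 0.19. The groups were apart at 1 of these, 11721376_at, with 59.2, 56.5 and 56.2 in the arrays labelled CTCF-OE and 51.3, 51.1 and 50.2 in the NC arrays. It did not pass (log2 fold change 0.17, standard error 0.038, adjusted p = 0.0846 from limma). The sign for the gene depended on the probe set: the mean over all 6 gave 0.09 (adjusted p = 0.421 from limma).

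BCL2A1, which NF-κB induces in inflamed and lymphoid cells, had the largest positive value of the 10. It was read at low intensity, 27.9, 25.7 and 27.7 in the arrays labelled CTCF-OE, against 23.8, 19.97 and 23.1 in the NC arrays. The groups did not overlap, but the log2 fold change of 0.27 (standard error 0.071, 95% interval 0.11 to 0.44) had an adjusted p of 0.116 from limma. The other probe set read 7.57 to 9.18 in the arrays labelled CTCF-OE and 6.77 to 7.95 in the NC arrays (log2 fold change 0.18, adjusted p = 0.327 from limma). Both lie within the range of the background control probe sets. With the mean of its 2 probe sets standing for the gene, the log2 fold change was 0.23 and the adjusted p over all genes 0.0424.

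Of the effectors, BAX was the member whose brightest probe set came closest to the threshold. BAX is a cytosolic protein that inserts into the mitochondrial membrane when BH3-only proteins engage it, and CTCF has been reported to bind its promoter in breast cancer cells. The intensity was 1008, 1037 and 1006 in the arrays labelled CTCF-OE, against 1128, 1127 and 1129 in the NC arrays. The 3 NC values lay within 3 units of each other, and the gap between the groups was wider than the range of either. The log2 fold change was -0.15 (standard error 0.035, 95% interval -0.23 to -0.07, adjusted p = 0.0909 from limma), a 1.11-fold difference. The adjusted p was 0.00337 from limma with an intensity trend, 0.0333 with 16 in place of 1 added to the intensity, and 0.0463 from the methods' t-test. It was 0.216 with a replicate block and 0.153 to 0.265 with 1 array left out. As the mean of its 2 probe sets, BAX had a log2 fold change of -0.07 (adjusted p = 0.275 from limma). The second probe set of BAX read 408, 417 and 408 in the arrays labelled CTCF-OE, against 416, 401 and 402 in the NC arrays. There the groups overlapped and the log2 fold change was 0.02 (95% interval -0.07 to 0.10).

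The promoters of BAX and BCL2A1 are shown because these genes had the largest differences without overlap at the brightest probe set, in opposite directions. The sequences are from RefSeq (GRCh38.p14), from 250 bases before to 50 after the start site, for BAX on the plus strand at chr19:48954625-48954924 and for BCL2A1 on the minus strand at chr15:79971147-79971446. Capitals mark matches on either strand to CCCTC, the core letters from which CTCF takes its name, or to the E-box CACGTG, which MYC and its partners bind and which was added after the sequence had been seen.
BAX: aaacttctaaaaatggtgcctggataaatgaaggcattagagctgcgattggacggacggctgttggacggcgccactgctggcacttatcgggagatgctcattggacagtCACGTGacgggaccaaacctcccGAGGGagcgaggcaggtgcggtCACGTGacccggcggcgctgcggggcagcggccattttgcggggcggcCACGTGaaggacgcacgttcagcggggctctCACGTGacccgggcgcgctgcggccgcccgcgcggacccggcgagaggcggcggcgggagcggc
BCL2A1: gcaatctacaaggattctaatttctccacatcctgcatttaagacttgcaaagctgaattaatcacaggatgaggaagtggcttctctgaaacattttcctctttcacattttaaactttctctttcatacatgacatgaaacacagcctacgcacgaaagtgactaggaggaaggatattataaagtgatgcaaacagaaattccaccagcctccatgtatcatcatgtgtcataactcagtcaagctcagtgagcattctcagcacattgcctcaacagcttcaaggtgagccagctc

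The BAX promoter held 1 CCCTC match and 4 E-boxes, and its G and C content was 67.3%. The BCL2A1 promoter held none of either and had 41.0% G and C. Of 35116 promoters of the same length in the table, 71.2% held CCCTC and 7.26% held CACGTG. For 9 of the 10 genes 14 promoters were listed. CCCTC was found in those of BAK1, BAX, BCL2, BCL2L1, BCL2L11 and BID, and CACGTG in those of BAX, BBC3 and BID. The NF-κB consensus, a motif of 10 letters that 11.3% of all promoters held, matched 0 of the 14, and the core consensus of CTCF, with 12 letters and 0.47% of promoters, also matched 0. A match or its absence in this window says nothing of binding.

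BAK1, the effector that sits in the mitochondrial membrane, did not pass at any of its 5 probe sets. Its brightest probe set read 736, 719 and 756 in the arrays labelled CTCF-OE, against 741, 804 and 716 in the NC arrays, with overlap (log2 fold change -0.03, 95% interval -0.16 to 0.09, adjusted p = 0.815 from limma). The other 4 had log2 fold changes between -0.10 and 0.03. The groups were apart at 11746208_a_at, with 441, 460 and 452 in the arrays labelled CTCF-OE and 484, 506 and 467 in the NC arrays, which did not pass (adjusted p = 0.291 from limma). All 5 intervals lay within 1.3-fold, although the dimmest probe set, with group means of 21.7 and 21.4, read within the range of the background control probe sets.

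The BH3-only genes had log2 fold changes below 0 at all 4 brightest probe sets, and 0 of the 4 passed. Over all 22 probe sets of these genes, 12 lay below 0 and 10 above it, with a median of -0.01. BBC3, which encodes the broadly binding killer PUMA, had the largest of these differences. Its brightest probe set read 287, 262 and 269 in the arrays labelled CTCF-OE, against 318, 346 and 287 in the NC arrays. The groups met at 287, NC replicate 3 being the lowest NC value. The log2 fold change was -0.21 (standard error 0.074, 95% interval -0.39 to -0.04, adjusted p = 0.215 from limma). The other read 80.6 to 85.4 in the arrays labelled CTCF-OE and 82.9 to 106 in the NC arrays, with a log2 fold change of -0.20 (adjusted p = 0.327 from limma). Both intervals reached past 1.3-fold on the lower side, so a fall of that size was neither shown nor bounded by 3 arrays per group.

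PMAIP1 encodes NOXA, which binds MCL1 and hastens its degradation. It read 4367, 4200 and 4224 in the arrays labelled CTCF-OE, against 4613, 4408 and 4618 in the NC arrays. The groups were separated by a narrow gap, and NC replicate 2 was the nearest. The log2 fold change was -0.09 (standard error 0.040, 95% interval -0.19 to 0.00, adjusted p = 0.298 from limma). With an intensity trend in limma it passed (adjusted p = 0.0410). The second probe set had -0.12, with 2795, 2744 and 2685 in the arrays labelled CTCF-OE and 2967, 2776 and 3242 in the NC arrays, which overlapped.

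BID and BCL2L11 were each measured by several probe sets, with estimates on both sides of 0, and 0 passed. BID links death receptors to mitochondria after caspase 8 cleaves it. Its brightest probe set read 859, 868 and 862 in the arrays labelled CTCF-OE, against 862, 905 and 867 in the NC arrays (log2 fold change -0.02, 95% interval -0.11 to 0.06, adjusted p = 0.791 from limma). The other 3 had values between -0.05 and 0.02, with overlap at each. All 4 intervals excluded a 1.3-fold change.

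BCL2L11 encodes BIM in several spliced forms and is transcribed by FOXO factors when growth signals cease. The brightest of its 14 probe sets read 215, 211 and 202 in the arrays labelled CTCF-OE, against 216, 225 and 218 in the NC arrays. The values came within 2 units of each other without overlap, and the log2 fold change was -0.07 (95% interval -0.17 to 0.03, adjusted p = 0.437 from limma). Of the 14, 5 lay below 0 and 9 above it, between -0.19 and 0.12, with a median of 0.02. At 11753863_s_at the groups were apart in the other direction, with 127, 126 and 129 in the arrays labelled CTCF-OE and 123, 121 and 108 in the NC arrays (adjusted p = 0.331 from limma). All 14 intervals lay within 1.3-fold, although 3 of the probe sets were among the dimmest 20% of the array. Others also read within the range of the background control probe sets.

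The rest of the family was described by a list of 13 further genes, each read by its brightest probe set. In limma 0 of these were lower and 0 higher after adjustment over all genes, and 2 had an unadjusted p under 0.05. Among all genes 1.39% were lower and 0.727% higher after adjustment, and 17.2% had an unadjusted p under 0.05. The methods' t-test also called 0. The median log2 fold change was 0.02. BNIP3L (NIX), a receptor for the removal of mitochondria by autophagy, had the largest difference. It read 1502, 1530 and 1554 in the arrays labelled CTCF-OE, against 1288, 1346 and 1371 in the NC arrays, and the groups did not overlap (log2 fold change 0.20, standard error 0.038, adjusted p = 0.0579 from limma). BMF, a BH3-only gene, had 0.14 and BOK, a relative of BAX and BAK1, -0.14, with adjusted p-values of 0.485 and 0.139 from limma. BNIP3, the close relative of BNIP3L, had 0.02.

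Downstream of the pores, the machinery that carries out death was represented by 18 measured genes, from cytochrome c to caspases and nucleases. Again 0 were lower and 0 higher in limma after adjustment, beside 1.39% and 0.727% of all genes. At an unadjusted p under 0.05 there were 3 of the 18, which is close to the 17.2% of all genes. The methods' t-test called 0 after adjustment. The median was 0.01. CYCS, cytochrome c itself, read 5180, 5195 and 5188 in the arrays labelled CTCF-OE, against 5179, 4881 and 5423 in the NC arrays (log2 fold change 0.01). APAF1, the scaffold of the apoptosome, read 54.0, 61.5 and 59.6 in the arrays labelled CTCF-OE, against 68.6, 72.2 and 60.5 in the NC arrays (log2 fold change -0.20, adjusted p = 0.265 from limma). DFFB, the nuclease that cuts DNA between nucleosomes, had -0.17 and CASP6, an executioner caspase, had 0.16, with adjusted p-values of 0.291 and 0.147 from limma. OPA1 had the lowest adjusted p of this list. It read 564, 563 and 548 in the arrays labelled CTCF-OE, against 504, 496 and 518 in the NC arrays (log2 fold change 0.14, adjusted p = 0.0980 from limma). Without overlap, 5 of the 18 genes were higher and 0 lower, beside 11.6% and 12.8% of all probe sets. Those shares include dimmer probe sets, and the share over genes at their brightest probe sets was not computed.

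Of the regulators that transcribe, bind, stabilise or degrade the family's members, 20 were measured. In limma 1 of them passed an adjusted p of 0.05 as lower and 0 as higher, beside 1.39% and 0.727% of all genes. At an unadjusted p under 0.05 there were 5, all of them lower, beside 17.2% of all genes in both directions together, and the methods' t-test called 0 after adjustment. DDIT3, which encodes CHOP, a stress transcription factor known to induce BH3-only genes, read 173, 150 and 156 in the arrays labelled CTCF-OE at its brightest probe set. The NC arrays read 228, 245 and 249.8. Every array labelled CTCF-OE was below every NC array, and DDIT3 had a log2 fold change of -0.59 with a standard error of 0.065 (adjusted p = 0.00997 from limma over all genes). Its second probe set had -0.60. The names of both end in _s_at, so both may also bind other transcripts. The median of the list was -0.02. With 1 array left out the log2 fold change ran between -0.65 and -0.54, and the call was lost in 3 of the 6 cases. The adjusted p was 0.0520 without CTCF-OE replicate 2, 0.0577 without CTCF-OE replicate 3, 0.0505 without NC replicate 2 and 0.0665 from the methods' t-test.

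The other 4 regulators at an unadjusted p under 0.05 were MYC, FOXO1, HUWE1 and MARCHF5. They did not pass, and they were picked out after their values had been seen. Their groups did not overlap, as 12.8% of all probe sets were lower without overlap. Genes picked for a low p-value tend to have such groups, so this adds no support. MYC, which sensitises cells to death, averaged 1461 ± 23.9 in the arrays labelled CTCF-OE and 1663 ± 40.9 in the NC arrays (SD, n = 3 each), with an adjusted p of 0.0547 from limma. FOXO1 read 113, 112 and 133 in the arrays labelled CTCF-OE, against 142, 142 and 146 in the NC arrays (log2 fold change -0.27, adjusted p = 0.117 from limma). HUWE1, a ubiquitin ligase for MCL1, had a log2 fold change of -0.14 (adjusted p = 0.0920 from limma). MARCHF5, a ubiquitin ligase of the mitochondrial outer membrane, had -0.11 (adjusted p = 0.182 from limma).

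**Figure D4:**
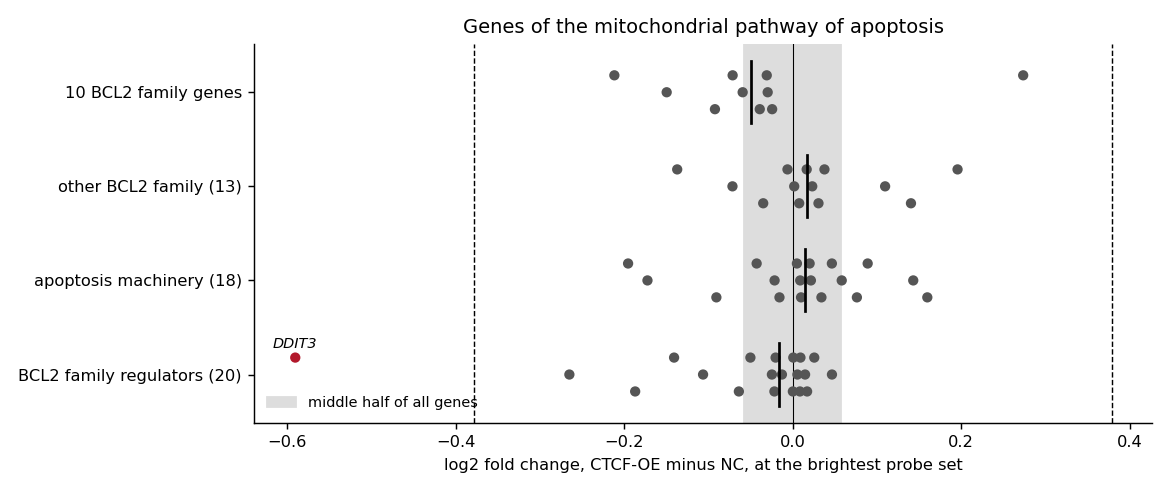
Log2 fold change, CTCF-OE minus NC, at the brightest probe set of each gene, for the 10 BCL2 family genes and 3 lists of the same pathway, with black bars at the medians, a grey band for all genes between their 25th and 75th percentiles and dashed lines at 1.3-fold. DDIT3, at -0.59 in red, is the only point with an adjusted p under 0.05 over all genes.

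The genes whose pattern over the 6 arrays was most like that of a member were sought among the 9078 brighter genes, by the root mean square distance of log2 values centred on each gene's mean. For BCL2A1 these were B4GALT6, LGR4 and MFN1, at distances of 0.030, 0.038 and 0.039. For BBC3 they were POLM, EML2 and PRR3, at 0.032, 0.041 and 0.043. For BAX they were RNF8, APOL6 and AJUBA, at 0.012, 0.012 and 0.013, with log2 fold changes of -0.13, -0.16 and -0.15. B4GALT6, LGR4 and MFN1 had log2 fold changes of 0.27, 0.25 and 0.23. Values centred in this way keep the difference between the groups. The 3 members were chosen for the largest differences, so genes of nearest pattern had to share them. BCL2A1 itself read within the range of the background control probe sets. A shared function was not tested.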

How the data were processed

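RNA of 3 samples per group had been labelled by the authors as biotinylated cRNA and hybridized to PrimeView arrays. The authors deposited linear intensities per probe set, scaled between arrays; the software, background correction and normalization are not given in the sources used here. All 6 value columns were used, by their labels. After 102 control probe sets were set apart, log2(intensity + 1) of 49293 probe sets was fitted with limma 3.58.1 in R 4.3.3 (1 group coefficient, prior degrees of freedom 2.97), and p-values were adjusted over all of them by the Benjamini-Hochberg method. The same fit over 18155 genes, each read by its brightest probe set annotated to it alone, gave the values of the listed genes. Standard errors and intervals of the members are from the fit of probe sets. The number of arrays limits the precision, and no counts or depths exist. Calls needed an adjusted p under 0.05, with a fold change above 1.3 where stated. The fit was tested on simulated data. The members, lists and tests were chosen with earlier results of these data known. Genes named are the 10 members, CTCF, markers of the cell line, of each pathway list those past the threshold or else the 3 with the largest change, and for the 3 members with the largest change the 3 genes of nearest pattern. BNIP3, CYCS, OPA1 and 4 regulators were picked out after their values were seen. Some listed genes are not analysed here. Promoter motifs were searched in RefSeq sequences. Alternatives changed the added constant, the test, the scaling, the filter on dim probe sets, a replicate block, array weights, each array left out, the call rule and the probe set per gene. Python 3.11.15 with matplotlib 3.10.9 made the figures.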

Additional observations from a re-analysis of the deposited data

How the results depend on the processing

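Across 17 alternatives, 1 of them without the fold threshold, 0 of the 10 genes were called in either direction. With that threshold the 0 was fixed, since the genes' log2 fold changes ran only between -0.28 and 0.32, short of 0.38. At an adjusted p under 0.05 alone, BAX passed in 3 alternatives. Its adjusted p-values were 0.00337 from limma with an intensity trend, 0.0333 from limma with 16 added and 0.0463 from the methods' t-test. PMAIP1 passed with an intensity trend (0.0410 from limma) and BCL2A1 as the mean of its probe sets (0.0424 from limma). The counts of the further family members and of the death machinery stayed at 0. Without the fold threshold, 1 MCL1 probe set was called, and 3 with an intensity trend (MCL1, BAX and PMAIP1), beside 7.02% of all probe sets with that trend. The count of regulators called lower, 1 (DDIT3), was 0 with the methods' t-test and with the replicate block, and 0 to 1 when 1 array was left out (0 without CTCF-OE replicate 2, CTCF-OE replicate 3 or NC replicate 2). The CTCF probe set passed with 16 added to the intensity (-0.22), an intensity trend (-0.23), quantile normalization (-0.23), array quality weights (-0.23) and without the dimmest 20% of probe sets (-0.23). With 1 array left out it ran from -0.27 to -0.20. With the replicate block the MCL1 call was lost (adjusted p = 0.104 from limma), and 73 rather than 314 probe sets of the whole array passed both thresholds. That number was 149 with the methods' t-test, 1024 without the fold threshold and 144 to 244 with 1 array left out. Nothing in the labels pairs the replicate numbers, and after group means were removed arrays of the same number correlated at 0.012, 0.0054 and 0.0094. The sign turned for 3 genes that did not pass. With 1 array left out BCL2 ran from -0.1087 to 0.0231, above 0 without CTCF-OE replicate 1 (0.0114) or NC replicate 1, and BAK1 from -0.0671 to 0.0166, above 0 without NC replicate 2. BCL2 was at 0.0929 as the mean of its probe sets, and BCL2L11 was at 0.0022 as the mean of its probe sets. The cause was not tested. Of the dim members, BCL2, BCL2A1 and part of BCL2L11 are limited by signal near background.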
